A study of Mus musculus with 12 samples.

Results

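The genes described here encode the machinery of oxidative phosphorylation. They were chosen by symbol: protein-coding mouse genes of the GENCODE M21 annotation whose names begin with Nduf, Cox4 to Cox8, Uqcr or Atp5, the genes Sdha to Sdhd, and the protein-coding genes of the mitochondrial genome. The rule matched 107 annotated genes, of which 106 were among the 21793 protein-coding genes in the files. Of these members, 93 lie on nuclear chromosomes and 13 on mitochondrial DNA. The rule itself uses no expression values, but the members were chosen with earlier results of these data known.

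Oxidative phosphorylation is the process by which mitochondria make most of the ATP of a neuron. Complexes I and II pass electrons from NADH and succinate to ubiquinone, complex III passes them on to cytochrome c, and complex IV passes them to oxygen. Complexes I, III and IV pump protons across the inner membrane, and complex V, the ATP synthase, makes ATP as the protons flow back. Complexes I, III, IV and V are each built from subunits of both genomes, those of mitochondrial DNA being transcribed and translated inside the organelle, whereas complex II is wholly nuclear.

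RNA was measured in 12 libraries of mouse cortex at P0, the day of birth, 4 in each of 3 groups: control, H3.3 Neurod6 dKO and H3.3 Emx1 dKO, called Neurod6 dKO and Emx1 dKO from here on. In both knockouts the genes H3f3a and H3f3b, which encode the same histone variant H3.3, were targeted by conditional deletion, by Neurod6-Cre, which acts in newly postmitotic excitatory neurons, or by Emx1-Cre, which acts earlier, in progenitors of the same neurons and of cortical glia. Cells outside either Cre lineage, such as interneurons, vessels and microglia, keep both genes and remain in the tissue. The alleles carried by the control animals and the strain are not given in the labels. Nothing in the labels states that each library is a different animal, so the p-values speak of the spread among these libraries alone, and some of it may be technical. The comparisons ask how far RNA of the respiratory chain differs in cortex where the H3.3 genes were targeted, and whether its nuclear and mitochondrial genes differ alike. In RNA of whole tissue, fewer cells of a type and less RNA per cell cannot be told apart.

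Each library held between 722080 and 3502017 counts in genes, with Neurod6 dKO 1 to 3 the shallowest (722080 to 1046240) and Neurod6 dKO 4 the deepest. H3f3a, the targeted gene, lay at 17.7, 117, 16.4 and 121 CPM (counts scaled to a common library size, here with TMM factors) in control 1 to 4, against 22.1 to 37.8 in Neurod6 dKO and 22.9 to 30.04 in Emx1 dKO. The libraries labelled control 1 and control 3 therefore go against their label for this gene, and results were also computed without them. H3f3b, the other targeted gene, was not called lower in either knockout, with 121, 76.7, 142 and 84.2 CPM in control 1 to 4, 111 to 146 in Neurod6 dKO (log2 fold change 0.16, adjusted p = 0.583) and 167 to 180 in Emx1 dKO, where it was called higher (log2 fold change 0.69, adjusted p = 0.000707). The deleted part of either gene is not given in the labels, so these counts may include reads from outside it, and the directions below are those of the libraries as labelled. Counts of the Y-linked genes Ddx3y, Uty, Kdm5d and Eif2s3y summed to 1035 in Emx1 dKO 3 and 274 in Emx1 dKO 4. They summed to 0 to 3 in each of the other libraries, and results were likewise computed without that Emx1 dKO pair. Markers of cortical excitatory neurons summed to 4232 to 4871 CPM in control, 3156 to 4477 in Neurod6 dKO and 2890 to 3675 in Emx1 dKO, with none of 9 at 0. Markers of radial glia summed to 1112 to 1249, 1389 to 1958 and 1301 to 1389 CPM in the same order. Of these 10 markers 7 were tested, and 5 were called higher in Neurod6 dKO and 2 in Emx1 dKO. Over all genes tested, 5.04% and 10.1% were called higher. Markers of oligodendrocyte precursors summed to 61.8 to 77.0, 38.8 to 66.2 and 39.7 to 50.3 CPM. The part of these cell types in the values below was not tested.

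A gene was tested where it passed a filter on low counts, and was called where its adjusted p was under 0.05 in edgeR's quasi-likelihood test over all 11076 genes tested. The filter was passed by 85 members, 74 nuclear and 11 mitochondrial. By complex, 32 of 38 subunits of complex I were tested, 6 of 8 of its assembly factors, 4 of 4 subunits of complex II, 7 of 8 of complex III, 10 of 18 of complex IV and 15 of 17 of complex V. The 19 nuclear members not tested held between 0 and 109 counts over the 12 libraries, with a median of 20, against 105 to 5975 with a median of 322 for those tested. Their median exonic length was 788 bases, against 1869 bases for those tested.

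Some of the low values cannot be read as absence of the RNA. Cox4i1, the main form of subunit 4 of complex IV, and Ndufa13, a subunit of complex I, were at 0 in each of the 12 libraries, as were Cox8b and Cox8c. Cox4i1 lies wholly within the annotated body of Gm20388 on the same strand, and Ndufa13 within that of Yjefn3. Over all protein-coding genes that lie wholly inside another gene body on the same strand, 197 of 198 (99.5%) were at 0 in each library, against 170 of 436 (39.0%) of those inside a gene on the opposite strand and 3824 of 12076 (31.7%) of those that overlap no other gene. Counting over exons alone would not leave a gene in another gene's intron at 0. Counts here were therefore taken to be assigned over whole gene bodies, an inference because the counting options are not given. On that reading the values of nuclear members include reads from introns. A level per exonic kilobase divides these counts by exonic length alone. Nuclear members called highest or most abundant by it below are thus not ranked by mature RNA. For Cox4i1 and Ndufa13 the files hold no usable level. Among the other nuclear members, Ndufb9 and Ndufb8 had the largest exonic shares under another gene body on the same strand, 69.0% and 64.6%. Their levels may be too low on that reading, and they stay in the sums below.

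Of the 85 members tested, 0 were called between Neurod6 dKO and control, 3 between Emx1 dKO and control, and 2 between the knockouts. These are 0%, 3.53% and 2.35% of the members, against 11.3%, 20.2% and 6.84% of all genes tested. The 3 called in Emx1 dKO were Ndufs7, which was lower, and Ndufa5 and mt-Co3, which were higher. Ndufa5 and Ndufa9 were higher in Emx1 dKO than in Neurod6 dKO. Ndufs7, Ndufa5 and Ndufa9 all belong to complex I, and mt-Co3 to complex IV.

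With TMM factors, the nuclear members, summed over all 93, differed between the 3 groups by less than the spread between libraries, while as a share of all counts the Emx1 dKO libraries lay above those of control. Their sum was 1711, 1898, 1929 and 1838 CPM in control 1 to 4, 1980, 1998, 1837 and 1711 in Neurod6 dKO, and 1923, 1859, 1866 and 1851 in Emx1 dKO. The ranges of the knockouts lay within or overlapped that of control. The means were 1844 ± 96.4 (SD, n = 4), 1882 ± 134 and 1875 ± 33.0 CPM. The log2 ratio of group means was 0.03 for Neurod6 dKO against control and 0.02 for Emx1 dKO against control. As a share of all counts in genes, with no TMM factor, the nuclear sum was 0.175%, 0.187% and 0.194%, with log2 ratios to control of 0.10 for Neurod6 dKO and 0.15 for Emx1 dKO. In this share each Emx1 dKO library (0.191% to 0.203%) lay above each control library (0.157% to 0.184%), while Neurod6 dKO (0.163% to 0.205%) overlapped both. The place of Emx1 dKO against control in the nuclear sum thus depends on the scaling.

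The 13 mitochondrial members summed to more than the 93 nuclear ones in every library. Their sum was 4033, 4106, 3791 and 4253 CPM in control 1 to 4, 3563, 4248, 4139 and 2980 in Neurod6 dKO, and 3311, 3632, 3872 and 3548 in Emx1 dKO. Neurod6 dKO 4, the deepest library, was the lowest of all, and 3 of the 4 Emx1 dKO libraries lay below every control library, the exception being Emx1 dKO 3. The means were 4046 ± 193 (SD, n = 4), 3733 ± 585 and 3591 ± 232 CPM. The log2 ratio to control was -0.12 for Neurod6 dKO, which became -0.02 without Neurod6 dKO 4, and -0.17 for Emx1 dKO. As a share of counts in genes the mitochondrial sum was 0.384%, 0.371% and 0.371%, so that with no TMM factor the log2 ratio for Emx1 dKO was -0.05, less than the SD of 0.08 between libraries of a group. The direction was the same on both scales, but its size was set by the scaling.

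The ratio of mitochondrial to nuclear counts does not depend on the scaling between libraries. It was 2.36, 2.16, 1.97 and 2.32 in control 1 to 4, 1.80, 2.13, 2.25 and 1.74 in Neurod6 dKO, and 1.72, 1.95, 2.08 and 1.92 in Emx1 dKO. The means were 2.20 ± 0.177, 1.98 ± 0.248 and 1.92 ± 0.147 (SD, n = 4 each), and both knockouts overlapped control. The 2 ribosomal RNAs of the mitochondrial genome, mt-Rnr1 and mt-Rnr2, summed to 3631 ± 701 CPM in control, 3328 ± 500 in Neurod6 dKO and 3995 ± 249 in Emx1 dKO, and 0 of the 2 were called in any comparison (at an unadjusted p under 0.05, 0 in each knockout against control and 1 between the knockouts). These libraries were depleted of ribosomal RNA, so the levels of these 2 genes also carry the efficiency of that step.

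**Figure D1:**
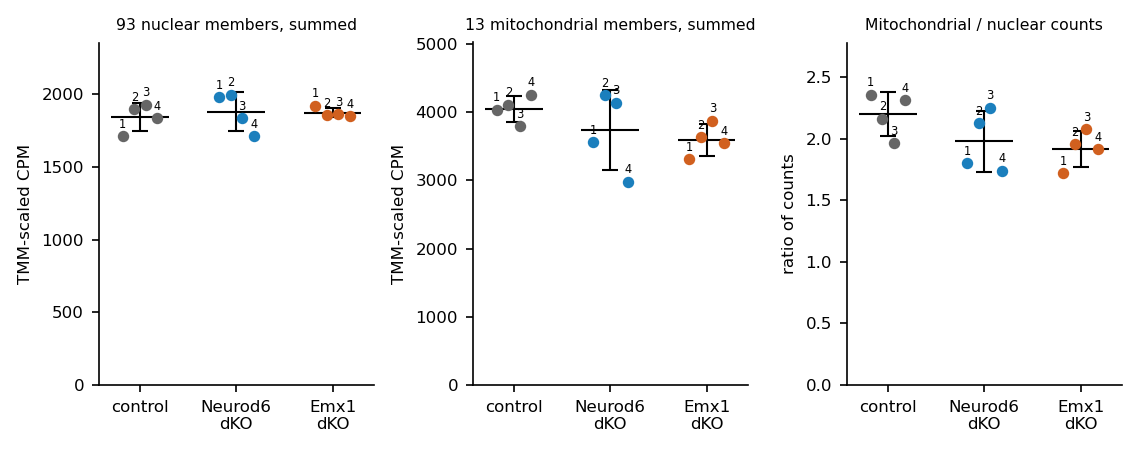
Summed TMM-scaled CPM of the 93 nuclear members (left), of the 13 mitochondrial members (middle) and the ratio of mitochondrial to nuclear counts (right), with 1 numbered point per library and the mean with SD of 4 libraries per group. The nuclear sums of the groups overlap, and Neurod6 dKO 4 has the lowest mitochondrial sum at 2980 CPM.

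Between Neurod6 dKO and control, 0 of 74 nuclear members and 0 of 11 mitochondrial members were called by edgeR, where 11.3% of all genes tested were. At an unadjusted p under 0.05 the test found 4 nuclear members and 1 mitochondrial member, and 23.1% of all genes. DESeq2 called 0 nuclear members and 1 mitochondrial member, mt-Co3, and 9.66% of all genes. Of the nuclear members, 44 had a positive and 30 a negative log2 fold change, with a median of 0.05 against 0.01 over all genes tested. They ranged from -0.84 for Ndufs8, an iron-sulfur subunit of complex I, to 0.83 for Ndufb2, an accessory subunit of complex I.

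How large a difference could have gone uncalled is given by the confidence intervals. The 95% interval of a nuclear member spanned ±0.53 on the log2 scale in the median for Neurod6 dKO, and ±0.48 for Emx1 dKO, against ±0.38 and ±0.35 over all genes tested. In Neurod6 dKO it lay wholly within a 2-fold change for 50 of the 74 nuclear members and within a 1.5-fold change for 24. In Emx1 dKO these counts were 62 and 33. Of the 11 mitochondrial members, 7 and 8 lay within a 2-fold change, and 4 and 4 within a 1.5-fold change. For the other members tested, the interval reached past a 1.5-fold change.

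Between Emx1 dKO and control, 2 of 74 nuclear members were called, 1 higher and 1 lower, and 1 of 11 mitochondrial members, which was higher. Of all genes tested, 20.2% were called in this comparison, 10.1% higher and 10.1% lower. At an unadjusted p under 0.05 the test found 5 nuclear and 2 mitochondrial members, against 31.7% of all genes. DESeq2 called 1 nuclear member, Ndufs7, and 2 mitochondrial ones, mt-Co3 and mt-Nd4, against 15.8% of all genes. Of the nuclear members, 41 had a positive and 33 a negative log2 fold change, with a median of 0.03 against 0.01 over all genes. Both knockouts were set against the same control libraries, so their values for a member are not independent of each other.

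Between Emx1 dKO and Neurod6 dKO, 2 of 74 nuclear members were called, both higher in Emx1 dKO, and 0 of 11 mitochondrial members, where 6.84% of all genes tested were called, 3.11% higher and 3.73% lower. At an unadjusted p under 0.05 the test found 8 nuclear and 0 mitochondrial members, and 22.0% of all genes. DESeq2 called 1 nuclear member, Ndufa9, 0 mitochondrial ones and 4.62% of all genes. The median log2 difference of the nuclear members was -0.00, with 36 positive and 38 negative.

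The complexes are described by their medians, with no test of a complex. For the 32 subunits of complex I tested, the median log2 fold change was -0.03 in Neurod6 dKO and -0.00 in Emx1 dKO. For its 6 assembly factors it was 0.08 and -0.04. Complex II had medians of 0.16 and 0.10 over 4 genes, complex III 0.24 and 0.08 over 7, complex IV 0.16 and 0.09 over 10, and complex V 0.09 and 0.07 over 15. The median over all genes tested was 0.01 in each comparison with control. The 3 nuclear members called by edgeR in any comparison all belong to complex I, which holds 32 of the 74 tested.

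**Figure D2:**
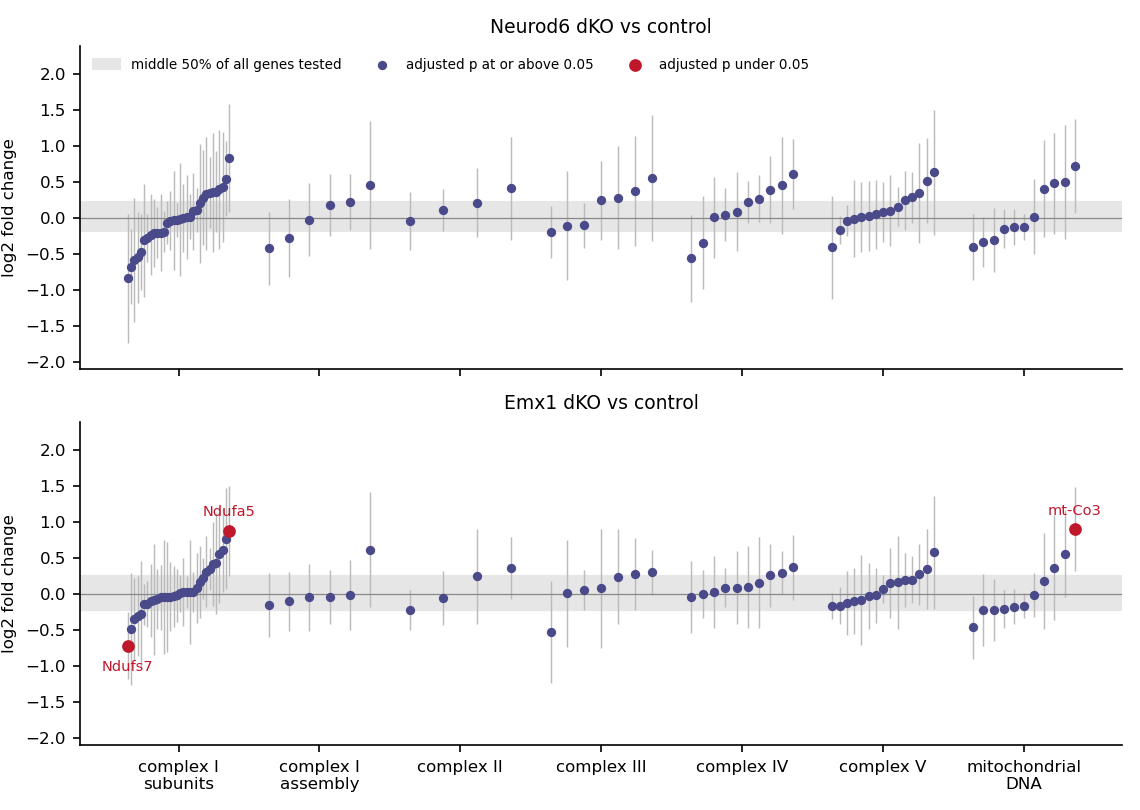
Log2 fold changes of the 85 tested members in Neurod6 dKO (top) and Emx1 dKO (bottom) against control, with 95% confidence intervals as grey lines, sorted within each complex, and the middle 50% of all genes tested as a grey band. Most members lie in or near the band, and the 3 called members, Ndufs7, Ndufa5 and mt-Co3, are in the lower panel.

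Complex I is the largest of the complexes, with a peripheral arm that oxidises NADH and a membrane arm that pumps protons. Ndufs7 (chr10:80249121-80256794, plus strand, mm10) encodes a subunit of the peripheral arm that holds the last iron-sulfur cluster before ubiquinone. It measured 16.2, 25.03, 16.8 and 20.7 CPM in control 1 to 4, 17.7, 16.8, 11.03 and 8.41 in Neurod6 dKO, and 9.80, 12.97, 12.1 and 11.8 in Emx1 dKO. Each of the 4 Emx1 dKO libraries lay below each control library, while Neurod6 dKO 1 and 2 lay within the control range and Neurod6 dKO 3 and 4 below it. The counts behind these values ran from 39 to 47 in control and from 15 to 32 in Emx1 dKO. The log2 fold change in Emx1 dKO was -0.72 (SE 0.23, 95% interval -1.18 to -0.25, adjusted p = 0.0232). In Neurod6 dKO it was -0.68 (SE 0.25, adjusted p = 0.0844), and between the knockouts -0.04 (adjusted p = 0.952). Over the 25 alternatives the adjusted p for Emx1 dKO ran from 0.00855 to 0.121, and the call was lost without control 2 (0.0993), control 4 (0.0525) or Emx1 dKO 1 (0.0580), without Emx1 dKO 3 and 4 together (0.121), with library totals (0.0661) and with libraries thinned to the smallest (0.0791).

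Ndufa5 (chr6:24518666-24528013, minus strand) encodes an accessory subunit of the peripheral arm. Its level was 5.65, 5.86, 4.32 and 4.65 CPM in control 1 to 4, 5.44, 2.80, 1.38 and 5.11 in Neurod6 dKO, and 9.80, 9.32, 9.38 and 9.51 in Emx1 dKO. All 4 Emx1 dKO libraries were above every other library. These are small numbers, 9 to 16 counts in control, 1 to 17 in Neurod6 dKO and 15 to 24 in Emx1 dKO. The log2 fold change in Emx1 dKO was 0.88 (SE 0.31, 95% interval 0.25 to 1.504, adjusted p = 0.0392), and the difference between the knockouts was 1.19 (SE 0.36, 95% interval 0.46 to 1.92, adjusted p = 0.0375). Against control the adjusted p ran from 0.0151 to 0.212 over 23 alternatives, of which 9 kept the call. It was lost in 8 of the fits that left out 1 library each (up to 0.105), and with DESeq2 it was 0.0914. The call between the knockouts was kept in 9 of 23 alternatives and lost in 7 of the fits that left out 1 library each (up to 0.0803), with DESeq2 (0.0875), with only those groups in the fit (0.0562) and with the replicate block (0.0587).

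Ndufa9 (chr6:126821721-126849136, minus strand) encodes the accessory subunit at the joint of the arms. It measured 27.9, 31.4, 39.3 and 31.5 CPM in control 1 to 4, 29.9, 26.1, 22.1 and 27.6 in Neurod6 dKO, and 37.9, 42.5, 41.0 and 43.6 in Emx1 dKO. All Emx1 dKO libraries lay above all Neurod6 dKO libraries, and the control libraries overlapped both. The log2 difference between the knockouts was 0.63 (SE 0.16, 95% interval 0.29 to 0.96, adjusted p = 0.0156). Against control the log2 fold changes had opposite signs, 0.35 in Emx1 dKO (SE 0.14, adjusted p = 0.0851) and -0.28 in Neurod6 dKO (adjusted p = 0.338), and neither was called. The call between the knockouts held in 22 of 25 alternatives, and was lost without Neurod6 dKO 4 (adjusted p = 0.0579), without Emx1 dKO 3 and 4 (0.142) and with thinned libraries (0.123).

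**Figure D3:**
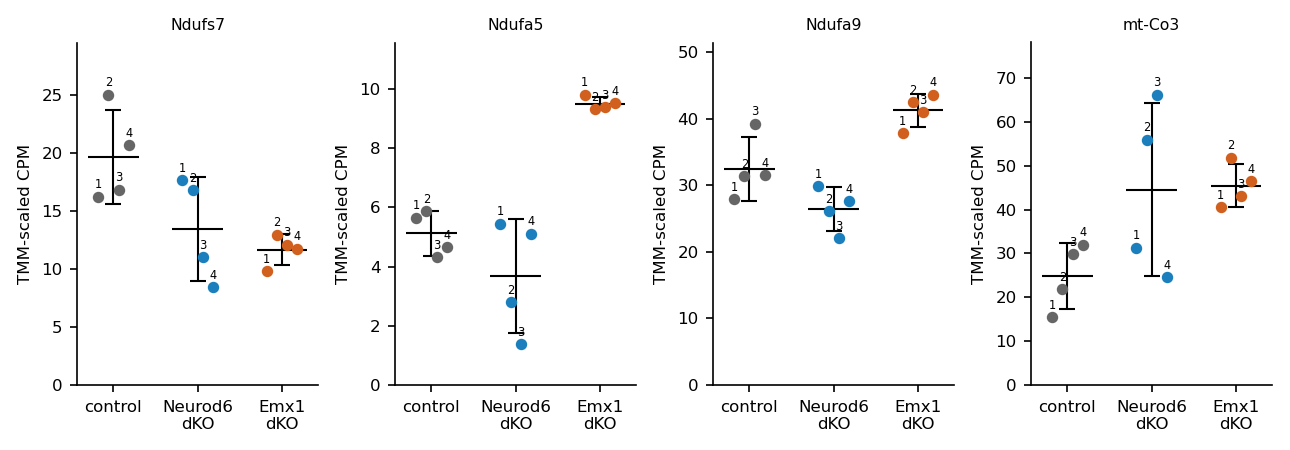
TMM-scaled CPM of the 4 members called in any comparison, with 1 numbered point per library and the mean with SD of 4 libraries per group; each vertical axis starts at 0 and has its own scale. Ndufs7 is lower and Ndufa5 and mt-Co3 are higher in all 4 Emx1 dKO libraries than in any control library.

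The other subunits of complex I that reached an unadjusted p under 0.05 against control were not called. Ndufb2 had a log2 fold change of 0.83 in Neurod6 dKO (adjusted p = 0.163), and Ndufab1, the acyl carrier protein of the complex, 0.54 (adjusted p = 0.194). In Emx1 dKO, Ndufa11, an accessory subunit of the membrane arm, had 0.77 (adjusted p = 0.118) and Ndufb7, which also belongs to that arm, 0.61 (adjusted p = 0.135). The most abundant subunit of complex I per exonic kilobase was Ndufc2, at 56.1 CPM per kilobase in control. Its level was 42.3 ± 5.7 CPM in control, 41.3 ± 9.2 in Neurod6 dKO and 49.3 ± 4.1 in Emx1 dKO (SD, n = 4), with log2 fold changes of 0.02 (95% interval -0.30 to 0.33) and 0.22 (-0.07 to 0.51). Of the pair Ndufa4 and Ndufa4l2, of which Ndufa4 is now placed in complex IV, Ndufa4 held 238 counts over the 12 libraries and Ndufa4l2 held 4. The log2 fold change of Ndufa4 was 0.28 in Neurod6 dKO and 0.42 in Emx1 dKO (adjusted p = 0.672 and 0.341).

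Complex II is succinate dehydrogenase, which also works in the tricarboxylic acid cycle. All 4 subunits were tested and 0 were called in any comparison (at an unadjusted p under 0.05, 0 in each knockout against control and 1, Sdha, between the knockouts). Sdhb, the iron-sulfur subunit and the most abundant per exonic kilobase, lay at 28.9 ± 8.6, 27.4 ± 3.0 and 27.9 ± 5.9 CPM in control, Neurod6 dKO and Emx1 dKO, with log2 fold changes of -0.04 (95% interval -0.45 to 0.36) and -0.05 (-0.43 to 0.32). Sdha, the flavoprotein subunit, measured 43.9 ± 3.5, 48.7 ± 6.3 and 37.6 ± 4.8 CPM, a log2 difference between the knockouts of -0.33 (adjusted p = 0.187).

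Complex III carries electrons from ubiquinol to cytochrome c. Of its 7 tested members 0 were called in any comparison (at an unadjusted p under 0.05, 0, 0 and 1). Uqcrc2, a core subunit and the most abundant per exonic kilobase, lay at 38.5, 51.1, 41.9 and 28.4 CPM in control, 25.8, 42.0, 42.7 and 31.8 in Neurod6 dKO, and 52.3, 52.3, 39.9 and 54.3 in Emx1 dKO. Emx1 dKO 1, 2 and 4 were above every other library, and Emx1 dKO 3 was within the control range. The log2 fold changes were -0.19 and 0.30 (95% intervals -0.55 to 0.17 and -0.01 to 0.62), and the difference between the knockouts was 0.50 (adjusted p = 0.0786). Uqcrc1, its partner core subunit, measured 42.8 ± 2.4, 42.0 ± 9.1 and 44.9 ± 3.7 CPM.

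Complex IV is cytochrome c oxidase, and several of its nuclear subunits come as tissue forms. The forms known from heart, muscle, lung or testis were low: Cox4i2 held 20 counts over the 12 libraries, Cox6a2 2, Cox6b2 6 and Cox7a1 2. Their widely expressed partners held 181 counts for Cox6a1, 307 for Cox6b1, 253 for Cox7a2 and 406 for Cox7a2l, which is a supercomplex assembly factor rather than a core subunit, and Cox8a held 1458. Cox8a also had the highest level per exonic kilobase of all nuclear members, at 97.8 CPM per kilobase in control. It measured 55.5, 62.8, 58.7 and 65.1 CPM in control, 88.4, 90.5, 64.8 and 52.6 in Neurod6 dKO, and 64.0, 68.5, 66.0 and 56.5 in Emx1 dKO. Neurod6 dKO held both the highest libraries and the lowest. Its log2 fold changes were 0.23 (95% interval -0.07 to 0.52) and 0.09 (-0.19 to 0.36). Without Neurod6 dKO 4 the value in Neurod6 dKO was 0.44 and passed the test (adjusted p = 0.0291). Cox7c, a small membrane subunit, had the largest log2 fold change of the complex in Neurod6 dKO, 0.61 (adjusted p = 0.103). Of the 10 tested members 0 were called in any comparison (at an unadjusted p under 0.05, 1, 0 and 0).

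Complex V is the ATP synthase. Of its 15 tested members 0 were called in any comparison (at an unadjusted p under 0.05, 0, 0 and 1). Atp5b, the catalytic beta subunit, was the nuclear member with the most counts, 5975 over the 12 libraries, and the best measured. It lay at 253, 302, 277 and 293 CPM in control, 279, 264, 249 and 217 in Neurod6 dKO, and 257, 231, 270 and 246 in Emx1 dKO. The knockout libraries overlapped control, with Neurod6 dKO 4 the lowest. The log2 fold changes were -0.17 (95% interval -0.36 to 0.02, adjusted p = 0.297) and -0.16 (-0.35 to 0.02, adjusted p = 0.220). Subunit c of the membrane ring is encoded by Atp5g1, Atp5g2 and Atp5g3, which make the same mature protein. They held 113, 225 and 295 counts, with log2 fold changes of 0.63, 0.52 and 0.10 in Neurod6 dKO and 0.58, 0.35 and -0.02 in Emx1 dKO, and 0 of the 3 were called.

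The 13 members of mitochondrial DNA are transcribed as long precursors that are cut between the genes, 12 from one strand and mt-Nd6 from the other. Their levels differed widely within control. Per kilobase, mt-Co1, the catalytic subunit of complex IV, was the most abundant at 1422 CPM. It was followed by mt-Nd1 at 426, mt-Cytb, the mitochondrial subunit of complex III, at 380, mt-Nd6 at 334, mt-Nd5 at 209 and mt-Nd4 at 177, the 4 Nd genes being membrane subunits of complex I. Then came mt-Atp6, the proton channel subunit of complex V, at 102 and mt-Nd2 at 94.7. The lowest were mt-Co3 at 31.6, mt-Nd4l at 17.6, mt-Co2 at 12.8, mt-Atp8 at 6.14 and mt-Nd3 at 3.77, the last 2 with 40 and 26 counts over the 12 libraries and not tested. These 5 include 4 of the 5 genes that have near-identical copies in the nuclear genome, described next.

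Nuclear pseudogenes of mitochondrial DNA bear on which reads could be counted for a member. Over at least 98.99% of its length, each of mt-Co2, mt-Atp6, mt-Co3, mt-Nd3 and mt-Nd4l had a pseudogene at least 99% identical, and all 5 copies lie on chromosome 1 between 24612407 and 24615565 in mm10. Such copies covered 63.6% of mt-Nd4, 31.3% of mt-Co1 and 21.1% of mt-Atp8, and 0% of mt-Nd1, mt-Nd2, mt-Nd5, mt-Nd6 and mt-Cytb. Within the first stretch below, of mt-Co3, a read cannot be placed by its sequence. Within the second, of mt-Co1, a read that spans the bases that differ can. The first pair is the start of mt-Co3 (chrM:8607-8666, plus strand) and its place in the pseudogene Gm28437 (chr1:24613912-24613971, minus strand), which differ at 0 of 60 bases:
mt-Co3: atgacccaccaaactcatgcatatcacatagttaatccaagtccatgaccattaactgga
Gm28437: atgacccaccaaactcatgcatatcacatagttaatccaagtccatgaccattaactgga
The second pair is a stretch of mt-Co1 (chrM:5787-5846, plus strand) and its counterpart in Gm13340 (chr2:22589129-22589188, minus strand), with the 4 bases that differ in capitals:
mt-Co1: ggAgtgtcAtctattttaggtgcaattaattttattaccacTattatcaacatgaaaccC
Gm13340: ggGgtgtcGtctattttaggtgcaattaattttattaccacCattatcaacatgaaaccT
Reads that map to several places are a separate line of the files and are in no gene's count. The values of the 5 copied genes are therefore uncertain, and mt-Co3 is one of them. How the reads that were counted for these genes were told from their copies is not given.

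mt-Co3 (chrM:8607-9390), a core subunit of complex IV, was the mitochondrial member called. It measured 15.5, 21.8, 29.8 and 32.0 CPM in control 1 to 4, 31.3, 56.0, 66.2 and 24.6 in Neurod6 dKO, and 40.5, 51.9, 43.0 and 46.4 in Emx1 dKO. All Emx1 dKO libraries lay above all control libraries, and Neurod6 dKO spanned both, with Neurod6 dKO 4 at the level of control. The log2 fold change in Emx1 dKO was 0.90 (SE 0.27, 95% interval 0.32 to 1.49, adjusted p = 0.0305), and in Neurod6 dKO 0.72 (SE 0.30, adjusted p = 0.166). The call in Emx1 dKO held in 18 of 25 alternatives, with adjusted p from 2.16e-06 to 0.150. It was lost without control 1 (0.0680), control 2 (0.0833), Emx1 dKO 2 (0.0841), Emx1 dKO 3 (0.0564) or Emx1 dKO 4 (0.0685), and without control 1 and 3 together (0.150) or Emx1 dKO 3 and 4 together (0.149). Without Neurod6 dKO 4 the log2 fold change in Neurod6 dKO was 1.08 and passed the test (adjusted p = 0.00123). The pseudogene Gm28437 itself held 27 counts in control, 18 in Neurod6 dKO and 34 in Emx1 dKO over 4 libraries each.

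The mitochondrial members copied over almost their whole length and those with no such copy mostly differed in sign. All 4 copied genes that were tested had positive log2 fold changes in both knockouts, with medians of 0.49 in Neurod6 dKO and 0.47 in Emx1 dKO. Of the 5 genes with no such copy, 4 were negative in Neurod6 dKO and 5 in Emx1 dKO, with medians of -0.15 and -0.21. Genes copied in part are in neither set, and those tested were also negative in both knockouts. The log2 fold changes were -0.41 and -0.46 for mt-Nd4 (63.6% copied) and -0.12 and -0.16 for mt-Co1 (31.3% copied). Of the mitochondrial genes tested, only those copied over almost their whole length were positive in both knockouts. The gene mt-Nd6, with no such copy, was positive in Neurod6 dKO alone, at 0.02. The copied genes summed to 74.9, 115, 124 and 124 CPM in control 1 to 4, 140, 215, 233 and 90.4 in Neurod6 dKO, and 134, 129, 154 and 157 in Emx1 dKO, so that control 1 and Neurod6 dKO 4 stood low in their groups. The share of reads that did not map uniquely was 2.30%, 2.92%, 2.70% and 2.74% in control, 3.44%, 4.16%, 3.79% and 2.34% in Neurod6 dKO, and 3.16%, 2.83%, 2.96% and 3.29% in Emx1 dKO, and the same pair of libraries, control 1 and Neurod6 dKO 4, had the lowest shares. Its part in the level of mt-Co3 was not tested.

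**Figure D4:**
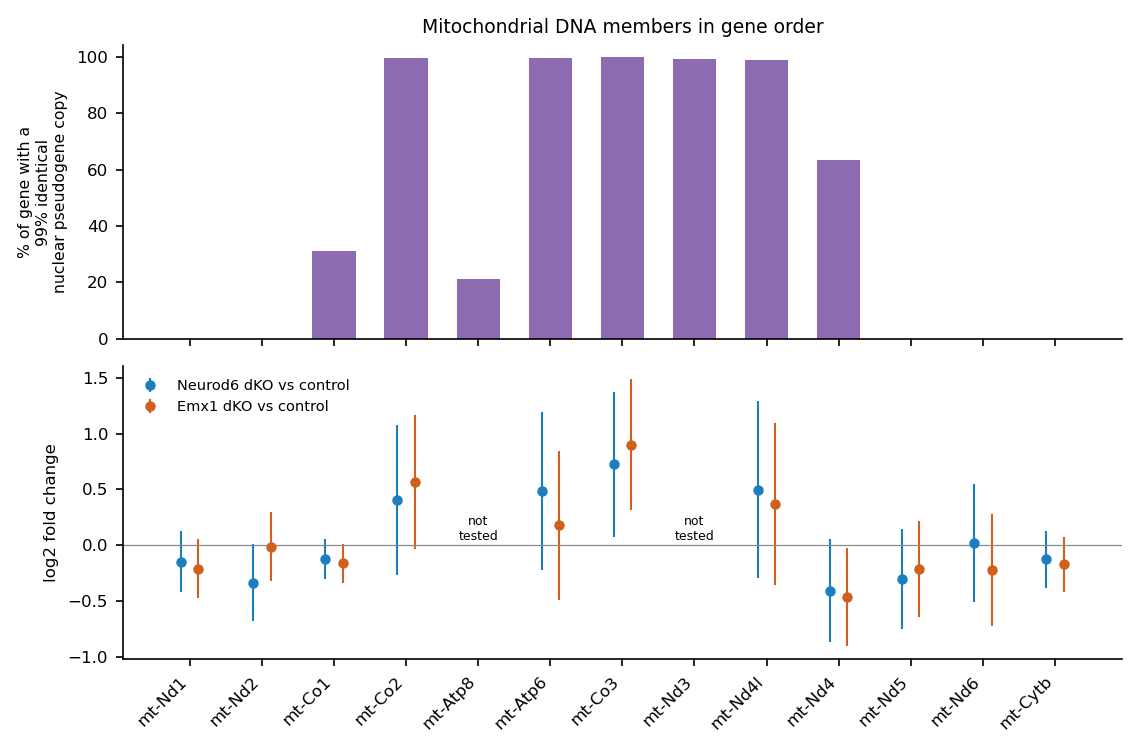
Percent of each mitochondrial gene covered by a nuclear pseudogene at least 99% identical (top) and its log2 fold change against control with the 95% confidence interval (bottom), genes in their order along the mitochondrial genome. The 4 tested genes covered almost whole, mt-Co2, mt-Atp6, mt-Co3 and mt-Nd4l, have positive values in both knockouts.

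The mitochondrial members without full copies were measured with more counts, and 0 of the 7 were called by edgeR in any comparison (at an unadjusted p under 0.05, 1, mt-Nd4 in Emx1 dKO). Some were called lower under other settings. With a gene-length offset these were mt-Co1 (adjusted p = 0.0483 in Neurod6 dKO and 0.0255 in Emx1 dKO), mt-Nd1 (0.0167 and 0.00808) and mt-Nd2 (0.0413 in Neurod6 dKO). With DESeq2 mt-Nd4 was called in Emx1 dKO (0.0344). With only the groups compared mt-Nd1 was called in Emx1 dKO (0.0465), with no low-count filter mt-Nd5 in Neurod6 dKO (0.0286), and without Neurod6 dKO 4 mt-Nd6 in Emx1 dKO against Neurod6 dKO (0.0247). mt-Co1 gave 54.3%, 54.5% and 54.7% of all mitochondrial member counts in control, Neurod6 dKO and Emx1 dKO. It lay at 2155, 2119, 2169 and 2343 CPM in control, 1912, 2198, 2132 and 1821 in Neurod6 dKO, and 1883, 1957, 2039 and 1964 in Emx1 dKO, with each Emx1 dKO library below each control library. The log2 fold changes were -0.12 (95% interval -0.30 to 0.05, adjusted p = 0.428) and -0.16 (-0.34 to 0.01, adjusted p = 0.192). For mt-Nd1 the values were 371, 424, 394 and 441 CPM in control, 438, 424, 379 and 254 in Neurod6 dKO, and 300, 384, 383 and 336 in Emx1 dKO, with log2 fold changes of -0.15 (-0.42 to 0.12) and -0.21 (-0.47 to 0.05). mt-Nd1 overlapped between groups, and Neurod6 dKO 4 was again the lowest library.

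mt-Nd4 had the most negative log2 fold change of the mitochondrial members in both knockouts, and passed the test under some settings only. It measured 289, 252, 184 and 249 CPM in control, 165, 258, 192 and 136 in Neurod6 dKO, and 135, 177, 211 and 181 in Emx1 dKO. Control 3 lay as low as the knockouts, and Neurod6 dKO 2 as high as control. Its log2 fold changes were -0.41 (95% interval -0.87 to 0.06, adjusted p = 0.287) and -0.46 (-0.90 to -0.02, adjusted p = 0.137). In Emx1 dKO it passed with no low-count filter (adjusted p = 0.00042), with DESeq2, without control 3 (0.0400) and without Neurod6 dKO 2 (0.0284), and in Neurod6 dKO with no filter (0.00272) and without Neurod6 dKO 2 (0.0216). For mt-Nd2 they were -0.34 (-0.68 to 0.01) and -0.01 (-0.32 to 0.30), for mt-Nd5 -0.30 (-0.75 to 0.14) and -0.22 (-0.65 to 0.21), and for mt-Cytb -0.13 (-0.38 to 0.13) and -0.17 (-0.42 to 0.07). For mt-Nd6, from the opposite strand, they were 0.02 (-0.51 to 0.54) and -0.22 (-0.72 to 0.28). The ratio of mt-Nd6 to its neighbour mt-Nd5, a measure of the balance of the strands, was 0.463 ± 0.108 in control, 0.583 ± 0.0859 in Neurod6 dKO and 0.455 ± 0.0511 in Emx1 dKO (SD, n = 4), with overlapping libraries.

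The promoters of the nuclear members were searched for motifs of factors known to act on respiratory genes. RefSeq windows (GRCm38.p6) of 250 bases before to 50 after each start were found for 74 of the 93 nuclear members, with 79 windows in all, and both strands were read. The NRF1 motif GCATGCG, the core of the site bound by nuclear respiratory factor 1, was in 13 of the 79 windows (16.5%), against 6.46% of the 11171 windows of genes tested and 3.58% of all 32851 windows. The YY1 motif AAGATGGC was in 12.7% against 4.34% and 2.75%, the ETS motif CCGGAAG, of the kind bound by Gabpa, in 22.8% against 17.0% and 8.86%, and the SP1 motif GGGCGG in 43.0% against 62.9% and 35.7%. A match is a string of letters and not a measured binding site. The nuclear members called, Ndufs7, Ndufa5 and Ndufa9, were not among these 13. Starts here are those of the RefSeq windows, and the stretches of Ndufa8, Sdhb and Atp5j below overlap an exon annotated in GENCODE M21. Shown are the 4 members with the NRF1 letters before the RefSeq start that have the highest level per exonic kilobase. The stretches of 30 bases have the letters in capitals, from chr2:36049328-36049357 (minus), chr4:140961206-140961235 (plus), chr5:115349100-115349129 (minus) and chr16:84835104-84835133 (minus):
Ndufa8: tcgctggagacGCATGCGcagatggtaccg
Sdhb: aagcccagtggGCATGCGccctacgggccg
Cox6a1: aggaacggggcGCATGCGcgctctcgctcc
Atp5j: ggccagaatacGCATGCGtacagtgcagtg
Of the 3 nuclear members called, Ndufs7 (chr10:80249462-80249491, plus) and Ndufa9 (chr6:126849097-126849126, minus) have the YY1 letters just after the start, where 9 of the 10 members with that motif have them:
Ndufs7: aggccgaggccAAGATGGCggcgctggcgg
Ndufa9: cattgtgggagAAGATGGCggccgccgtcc
The YY1 letters are thus shared by a member that was lower in Emx1 dKO and one that was not called against control.

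Other genes of the pathway were taken from lists of related functions. Of 16 tested genes that maintain, transcribe or process mitochondrial RNA and DNA, 0 were called in Neurod6 dKO and 0 in Emx1 dKO against control (at an unadjusted p under 0.05, 0 and 1). Tfam, the factor that packages and transcribes mitochondrial DNA, had log2 fold changes of -0.22 and 0.20 (adjusted p = 0.617 and 0.5), and Polrmt, the mitochondrial RNA polymerase, 0.09 and -0.07. Polg2, the accessory subunit of the mitochondrial DNA polymerase, was lower in Emx1 dKO than in Neurod6 dKO by a log2 difference of -1.28 (adjusted p = 0.0479), a call lost in 11 of the 12 fits without 1 library.

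Of 65 tested proteins of the mitochondrial ribosome, which translates the 13 mitochondrial mRNAs, 0 were called in Neurod6 dKO (1 at an unadjusted p under 0.05) and 3 in Emx1 dKO, all higher. That is 4.62% of the list, against 20.2% of all genes called and 10.1% called higher. Their median log2 fold change was 0.07 and 0.14. The 3 were Mrps14 (0.83, adjusted p = 0.0314), Mrps35 (0.53, adjusted p = 0.0375) and Mrps31 (0.69, adjusted p = 0.0428). Each was lost in 5 to 7 of the 12 fits that left out 1 library. Of 74 tested proteins of the cytosolic ribosome, 4 were higher in Neurod6 dKO (5.41%, against 5.04% of all genes called higher) and 11 in Emx1 dKO (14.9%, against 10.1%), with medians of 0.16 and 0.17.

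Assembly genes outside the naming rule included 3 that were called. Of 11 tested for cytochrome oxidase, 1 was called in Neurod6 dKO (9.09%) and 2 in Emx1 dKO (18.2%) against control. Of 8 tested for assembly or regulation of complexes II, III and V, 0 and 1 were called (0% and 12.5%). Over all genes tested, 11.3% and 20.2% were called in these comparisons, so none of these shares was above that of all genes. Pet100, needed to assemble complex IV, rose in both knockouts, from 4.44 ± 1.4 CPM in control to 10.5 ± 3.0 in Neurod6 dKO and 8.97 ± 1.7 in Emx1 dKO (log2 fold changes 1.09 and 1.00, adjusted p = 0.0350 and 0.0238, each lost in 5 of the 12 fits without 1 library). Both calls of Pet100 were also lost without control 1 and 3 (0.172 and 0.147) and without Emx1 dKO 3 and 4 (0.0515 and 0.209), and that in Neurod6 dKO with the replicate block (0.0574), with no low-count filter (0.0760) and with only the groups compared (0.0537). Cox15, which makes heme A for complex IV, was higher in Emx1 dKO (0.69, SE 0.20, adjusted p = 0.0121), at 15.5 ± 2.2, 21.4 ± 5.3 and 24.9 ± 3.4 CPM in the 3 groups. Sdhaf2, which attaches the flavin to Sdha, was lower in Emx1 dKO, at 20.3 ± 2.0, 20.5 ± 4.6 and 12.7 ± 2.0 CPM (-0.68, SE 0.21, adjusted p = 0.0166). The calls of Cox15 and Sdhaf2 were each lost in 2 of the 12 fits, with an adjusted p of up to 0.0648 and 0.0542. Both were also lost without control 1 and 3 (0.0742 and 0.0627), without Emx1 dKO 3 and 4 (0.239 and 0.0573) and with thinned libraries (0.132 and 0.334). Of 13 tested electron carriers and ubiquinone genes 0 were called in any comparison (at an unadjusted p under 0.05, 0, 2 and 1). Cytochrome c, encoded by Cycs, had log2 fold changes of -0.28 and -0.10, and Coq7, of ubiquinone synthesis, -0.39 and 0.94 (adjusted p = 0.690 and 0.0589).

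Genes that feed the respiratory chain were called in small numbers. In the tricarboxylic acid cycle and pyruvate entry, 0 of 19 were called in Neurod6 dKO (4 at an unadjusted p under 0.05, where 23.1% of all genes were) and 2 in Emx1 dKO, both lower (10.5%, against 20.2% of all genes called). Idh3a, the catalytic subunit of the NAD-dependent isocitrate dehydrogenase, fell from 70.2 ± 8.3 CPM in control to 47.7 ± 2.9 in Emx1 dKO (log2 fold change -0.57, SE 0.13, adjusted p = 0.00136), with 54.9 ± 13 in Neurod6 dKO. Cs, citrate synthase, had -0.34 (adjusted p = 0.0435, lost in 5 of the 12 fits without 1 library). Idh3a kept its call in all 12 such fits (0.000291 to 0.00994), and lost it without control 1 and 3 together (0.0572) and with thinned libraries (0.0627).

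In glycolysis, which makes ATP outside mitochondria, 3 of 16 genes were called in Neurod6 dKO, 1 higher and 2 lower (18.8%, against 11.3% of all genes), and 4 in Emx1 dKO, all higher (25%, against 20.2%). Log2 fold changes were positive for 7 and negative for 9 in Neurod6 dKO, and for 10 and 6 in Emx1 dKO. The medians were -0.03 and 0.04. Eno2 had the lowest value in both knockouts, -0.74 in Neurod6 dKO and -0.53 in Emx1 dKO. Ldhb, a subunit of lactate dehydrogenase, rose in both, from 27.7 ± 5.4 CPM to 46.1 ± 5.3 and 50.6 ± 3.9 (log2 fold changes 0.76 and 0.87, adjusted p = 0.000755 and 2.5e-05). Pfkl, a subunit of phosphofructokinase, rose in Emx1 dKO (0.64, adjusted p = 0.00179), as did Gpi1, glucose phosphate isomerase (0.43, adjusted p = 0.00579). The calls of Pfkl and Gpi1 were lost without control 1 and 3 together (adjusted p = 0.0653 and 0.0957) and with thinned libraries (0.0890 and 0.108), and that of Gpi1 without Emx1 dKO 3 and 4 (0.0626), whereas Ldhb passed in Emx1 dKO in all 25 alternatives, and in Neurod6 dKO in all but the one with libraries thinned to the smallest (0.377).

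Of 17 tested genes of protein import into mitochondria, 0 were called in Neurod6 dKO (2 at an unadjusted p under 0.05) and 2 in Emx1 dKO (11.8%, against 20.2% of all genes). Timm23, the channel of the inner membrane, lay at 27.2 ± 1.4 CPM in control, 24.1 ± 3.0 in Neurod6 dKO and 42.6 ± 2.6 in Emx1 dKO. It was higher in Emx1 dKO than in control (0.65, SE 0.14, adjusted p = 0.001) and than in Neurod6 dKO (0.89, adjusted p = 0.000854), in each of the fits without 1 library. With libraries thinned to the smallest both calls were lost (adjusted p = 0.0563 and 0.0702). Tomm70a, a receptor of the outer membrane, was lower in Emx1 dKO (-0.32, adjusted p = 0.0319, lost in 5 of the 12 fits without 1 library).

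Of 10 tested regulators of mitochondrial biogenesis, 0 were called in Neurod6 dKO (1 at an unadjusted p under 0.05) and 2 were higher in Emx1 dKO, a share of 20%, near the 20.2% of all genes. Gabpb1, the partner of the ETS factor Gabpa, lay at 32.2 ± 0.84, 42.0 ± 8.2 and 47.3 ± 5.0 CPM in control, Neurod6 dKO and Emx1 dKO (0.56 in Emx1 dKO, SE 0.14, adjusted p = 0.00362; 0.45 in Neurod6 dKO, adjusted p = 0.0516). Ppargc1b, a coactivator of respiratory genes, lay at 9.83 ± 3.2, 11.9 ± 1.6 and 17.6 ± 2.4 CPM (0.84 in Emx1 dKO, SE 0.23, adjusted p = 0.009). Both kept their calls in Emx1 dKO in each of the 12 fits without 1 library. They lost them without control 1 and 3 together (adjusted p = 0.0552 and 0.195), with log2 fold changes of 0.56 and 0.63. Ppargc1b also lost its call without Emx1 dKO 3 and 4 (0.162, log2 fold change 0.69). Over all genes, calls in Emx1 dKO against control fell from 2238 to 1215 and 1225 in these fits. The members of the respiratory complexes themselves, as given above, had a median log2 fold change of 0.03 in that comparison.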

How the data were processed

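RNA was measured in 12 libraries of P0 mouse cortex, made by ClickSeq from total RNA depleted of ribosomal RNA, per the labels. The authors deposited raw counts per gene, 1 file per library, as whole numbers. The tools STAR, UMI-tools and HTSeq and the build mm10 are named in the submitters' processing notes; versions, counting options and annotation: not given in the sources used here. Of the reads per library, 85.2% to 88.9% were in genes, 6.65% to 8.94% had no feature, 2.00% to 2.20% were ambiguous and 2.30% to 4.16% did not map uniquely; these lines stayed out of library sizes and tests. Genes were named from GENCODE M21 by identifier (51633 of 51912, 99.5%). The chromatin and single-nucleus assays of the series were not analysed here.

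Low counts were removed with filterByExpr (minimum count 10), leaving 11076 genes with 99.0% of counts. Library sizes were corrected by TMM, and edgeR's quasi-likelihood test was run from a single model of the 3 groups over the 12 libraries (9 residual degrees of freedom). P-values were adjusted by Benjamini-Hochberg over all genes tested, with a threshold of 0.05, and intervals are 95% confidence intervals. CPM values are TMM-scaled, given as mean ± SD over 4 libraries. At these depths 3 counts equal 0.857 to 4.15 CPM, and the common biological coefficient of variation was 10.6%. Pairs of libraries within a group differed by more than sampling noise (chi-square over its degrees of freedom, 1.62 to 5.99). Nuclear copies of mitochondrial genes were found by aligning annotated transcripts. Alternatives were each library left out in turn and 13 others, among them DESeq2, other scalings and filters, a gene-length offset and a replicate block.

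On simulated counts (10990 genes tested, 5 draws, 200 genes changed), the test recovered 42.4%, 75.2% and 95.5% of genes changed 1.5-, 2- and 4-fold between Neurod6 dKO and control, with 5.48% false calls. Between Emx1 dKO and control it recovered 52.5%, 81.5% and 97.3%, with 3.86% false calls. The changed genes were drawn from all genes tested, so these rates are not those of the members. Nuclear members had wider median intervals, ±0.53 in Neurod6 dKO and ±0.48 in Emx1 dKO, against ±0.38 and ±0.35 over all genes tested.

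The members and the lists were chosen with earlier results of these data known. The genes named are all mitochondrial members, all nuclear members called, the most abundant nuclear subunit of each complex per exonic kilobase, isoform pairs, and up to 3 called genes of each list with the smallest adjusted p; others were chosen after their values were seen. Software: R 4.3.3, edgeR 4.0.16, limma 3.58.1, DESeq2 1.42.0, Python 3.11.15, pandas 2.3.3, scipy 1.17.1, numpy 2.4.6 and matplotlib 3.10.9.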

Additional observations from a re-analysis of the deposited data

Results flagged for a closer look

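Among 90 groups of 4 libraries examined for the named members, 4 held a library that stood far from the other 3, and chance gives about 1 in 20 groups. Ndufc2 was at 55.5 CPM in Emx1 dKO 1 against 46.9 to 47.5 in the other Emx1 dKO libraries. Uqcrc2 was at 39.9 CPM in Emx1 dKO 3 against 52.3 to 54.3. Cox6b1 was at 18.9 CPM in Emx1 dKO 1 against 11.3 to 12.3. Ndufa4 was at 5.65 CPM in control 1 against 9.82 to 10.4 in the other control libraries. None of these 4 genes was called in any comparison.

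The effects of the knockouts differed by a direct test for 2 of the 85 members tested, 2.35%, against 6.84% of all genes tested. Ndufa5 differed by a log2 fold change of 1.19 between Emx1 dKO and Neurod6 dKO, and Ndufa9 by 0.63, both higher in Emx1 dKO in 4 of 4 libraries. Of 23 alternatives 9 kept the call of Ndufa5, and of 25 alternatives 22 kept that of Ndufa9.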

How the results depend on the processing

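Counts of called members are small, and single libraries or settings move them. For Neurod6 dKO against control the count of nuclear members, 0, ranged from 0 to 2 when 1 library was left out. That of mitochondrial members, 0, ranged from 0 to 2 and was 3 with a gene-length offset, 3 with no low-count filter, 1 with libraries thinned to the smallest, 1 with the replicate block and the offset, and 1 with DESeq2. For Emx1 dKO the nuclear count, 2, ranged from 0 to 2; it was 4 with library totals, 1 with no filter, 1 with a minimum count of 30, 1 without control 1 and 3, 1 with the replicate block, 1 with the block and the offset, 1 with DESeq2, and 0 when thinned or without Emx1 dKO 3 and 4. The mitochondrial count, 1, ranged from 0 to 2; it was 3 with the offset, 3 with the block and the offset, 2 with no filter, 2 with only the groups compared, 2 with DESeq2, and 0 without control 1 and 3 or without Emx1 dKO 3 and 4. Between the knockouts the nuclear count, 2, ranged from 0 to 2; it was 1 with no filter, a minimum count of 30, only the groups compared, without control 1 and 3, the replicate block, the block and the offset, or DESeq2, and 0 when thinned or without Emx1 dKO 3 and 4. The mitochondrial count, 0, ranged from 0 to 1. As a share of counts the summed log2 ratio of Emx1 dKO to control was 0.148 for nuclear members (0.024 with TMM) and -0.048 for mitochondrial ones (-0.172). The causes were not tested. Fitted directions did not reverse for any call.

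Library totals moved the median log2 fold change of all genes to 0.07 in Neurod6 dKO and 0.14 in Emx1 dKO, and the share of calls that were higher from 44.5% to 57.8% and from 50.04% to 73.9% (between the knockouts from 45.5% to 65.4%). Libraries with the same replicate number did not deviate together (correlations -0.197 to 0.0373 over 7630 genes), so the numbers were not taken as pairs; the block moved the calls over all genes from 1255 to 1065, from 2238 to 1974 and from 758 to 500. Fits with fewer libraries or counts called fewer of all genes. In Emx1 dKO against control, 2238 calls fell to 1215 without control 1 and 3, 1225 without Emx1 dKO 3 and 4, and 1242 when thinned. In Neurod6 dKO 1255 became 756, 1123 and 791, and between the knockouts 758 became 587, 199 and 336. The loss of a gene's call in these fits is thus not particular to that gene. Depth limits what could be seen: the 74 nuclear members tested held a median of 322 counts over 12 libraries, and the 19 not tested a median of 20.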
